A study of Mus musculus with 9 samples.

Results

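The mitochondrial ribosomal proteins, the nuclear-encoded protein subunits of the ribosome inside mitochondria, were followed in mouse CD4 T cells on 9 expression arrays. Members were the genes with a single symbol in the platform annotation that begins with Mrpl or Mrps and a digit. The rule gave 76 of 18193 named genes, 47 for the large subunit (Mrpl) and 29 for the small subunit (Mrps). Each gene was read by the probe set with the highest mean, and values are log2 expression after Robust Multichip Analysis (RMA).

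Arrays came in 3 groups of 3, which the series' design text calls biological replicates. The pltTGFβ_iTreg were induced regulatory T cells grown from sorted spleen CD4+EGFP– T cells of Foxp3EGFP mice, a reporter strain on the C57BL/6 (B6) background. The culture lasted 72 hours, with plate-coated anti-CD3 at 2.5 µg/ml, anti-CD28 at 1 µg/ml, IL2 at 100 U/ml and a freeze/thaw lysate of WT C57BL/6 platelets, whose TGFβ1 dose is not given in the sources used here. The purTGFβ_iTreg grew in the same way with purified TGFβ1 at 5 ng/ml in place of the lysate. Tconv stands for conventional T cells of the same strain background. How the Tconv cells were treated is not settled, since the treatment text, which is the same for each sample, gives TGFβ1 to Tconv cells over the same period. Whether iTreg were purified by EGFP ahead of RNA extraction is not given in the sources used here.

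Mitochondria keep a small genome that encodes core proteins of the respiratory chain, and mitochondrial ribosomes make those proteins. All proteins of these ribosomes are encoded in the nucleus, made in the cytosol and imported, where they assemble with mitochondrial ribosomal RNA into a large subunit, which forms peptide bonds, and a small subunit, which reads the message. Some are homologues of bacterial ribosomal proteins, and others are found in mitochondria only. T cells are known to enlarge their mitochondria and mitochondrial translation after activation.

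Sex-linked transcripts set Tconv apart from both iTreg groups. Xist, the X-inactivation RNA of female cells, averaged 3.94 ± 0.049 in pltTGFβ_iTreg, 3.61 ± 0.21 in purTGFβ_iTreg and 10.81 ± 0.16 in Tconv (SD, n = 3 each). Y-linked Eif2s3y averaged 8.95 ± 0.069, 9.01 ± 0.18 and 2.70 ± 0.11 log2 in pltTGFβ_iTreg, purTGFβ_iTreg and Tconv. Sex, and whatever else set those mice apart, ran with every Tconv comparison below and cannot be told apart from the culture. Markers of T cells (Cd3d, Cd3e, Cd3g, Cd4, Cd2) averaged 10.14 to 10.54 on the 9 arrays. The marker lists of B cells, myeloid cells, platelets, CD8 or NK cells and erythroid cells averaged 3.06 to 5.07. The B cell list averaged 3.76 to 4.07 in pltTGFβ_iTreg, 3.86 to 4.14 in purTGFβ_iTreg and 4.46 to 4.53 in Tconv. The platelet list averaged 4.32 to 4.45, 4.22 to 4.36 and 4.62 to 4.79 in the same order, and the CD8 or NK list 4.45 to 4.61, 4.61 to 4.70 and 5.02 to 5.07. Of the T cell markers, Cd4 was lower in both iTreg groups (-0.62 and -0.72), and Cd2 was higher in pltTGFβ_iTreg (0.52) and not called in purTGFβ_iTreg (0.34). In the lists of other cells Cd79b, Itga2b and Cd8b1 were lower in both iTreg groups, and the part of other cells in the results was not tested. Foxp3, which defines regulatory T cells, averaged 3.86 in pltTGFβ_iTreg, 3.77 in purTGFβ_iTreg and 3.79 in Tconv and did not pass the test. These values are dim, below the median of 5.36 over all genes and within the range of the lists of other cells. A probe set this dim in every group cannot show whether Foxp3 was expressed or differed. Il2ra, Ctla4 and Ikzf2, genes of regulatory and activated T cells, rose in both. RNA of whole cultures cannot tell fewer cells of a type from less RNA per cell.

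The promoters of 7 members are shown for what the results turn on. Mrps10 and Mrps27 had the largest small-subunit falls in pltTGFβ_iTreg, Mrpl50 was called higher in pltTGFβ_iTreg, Mrps18a, Mrps18b and Mrps18c are paralogs that parted, and Mrps11 shares its start region with Mrpl46 of the other subunit. Each run is the 250 bases before the RefSeq start on GRCm38.p6, 5′ to 3′ on the strand of the gene. The regions are, in the same order, chr17:47368947-47369196 (plus strand), chr13:99344536-99344785 (plus strand), chr4:49521084-49521333 (minus strand), chr17:46110754-46111003 (plus strand), chr17:35916441-35916690 (minus strand), chr5:100798509-100798758 (plus strand) and chr7:78782881-78783130 (plus strand). Capitals mark exact matches, on either strand, to 7 short motifs. The ETS core, bound by GABP among other factors, was searched as CCGGAAG. The NRF1 core was searched as GCATGCG. The E-box was searched as CACGTG and the GC box, a site of Sp1 and its relatives, as GGGCGG. For the factor YY1 the letters were AGATGGC. The CRE core, a cyclic AMP response element, was searched as TGACGTC and the TATA box as TATAAA. The NRF1 core and its reverse complement overlap at the same place in the Mrps18b run, and no match was found in the Mrpl50 run.
Mrps10: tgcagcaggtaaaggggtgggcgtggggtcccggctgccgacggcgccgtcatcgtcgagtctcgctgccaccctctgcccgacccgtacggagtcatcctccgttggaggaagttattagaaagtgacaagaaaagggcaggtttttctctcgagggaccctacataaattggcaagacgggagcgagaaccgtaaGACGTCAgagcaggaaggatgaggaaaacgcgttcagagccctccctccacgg
Mrps27: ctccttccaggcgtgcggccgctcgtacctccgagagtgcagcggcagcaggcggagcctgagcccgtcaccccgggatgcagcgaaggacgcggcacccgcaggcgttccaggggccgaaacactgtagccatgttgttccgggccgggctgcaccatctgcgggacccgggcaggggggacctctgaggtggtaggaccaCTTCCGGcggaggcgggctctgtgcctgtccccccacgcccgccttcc
Mrpl50: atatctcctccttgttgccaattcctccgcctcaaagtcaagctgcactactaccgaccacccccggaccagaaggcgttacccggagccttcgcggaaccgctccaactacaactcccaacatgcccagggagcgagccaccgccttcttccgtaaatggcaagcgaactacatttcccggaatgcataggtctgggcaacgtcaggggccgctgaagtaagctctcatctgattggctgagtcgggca
Mrps18a: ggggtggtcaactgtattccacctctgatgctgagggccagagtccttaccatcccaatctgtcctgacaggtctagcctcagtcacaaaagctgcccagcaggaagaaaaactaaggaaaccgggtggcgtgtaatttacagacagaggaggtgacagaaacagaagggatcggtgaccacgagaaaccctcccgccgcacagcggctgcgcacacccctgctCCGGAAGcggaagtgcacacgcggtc
Mrps18b: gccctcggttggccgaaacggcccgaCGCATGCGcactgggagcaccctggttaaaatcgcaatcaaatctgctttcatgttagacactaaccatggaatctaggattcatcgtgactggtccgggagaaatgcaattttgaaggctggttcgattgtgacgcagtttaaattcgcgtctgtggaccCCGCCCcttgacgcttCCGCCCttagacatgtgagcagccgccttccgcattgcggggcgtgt
Mrps18c: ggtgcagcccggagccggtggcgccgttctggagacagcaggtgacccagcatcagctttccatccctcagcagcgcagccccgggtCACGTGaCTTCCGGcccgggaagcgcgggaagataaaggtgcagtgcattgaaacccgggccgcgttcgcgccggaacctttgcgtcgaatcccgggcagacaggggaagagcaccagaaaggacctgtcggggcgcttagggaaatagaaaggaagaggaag
Mrps11: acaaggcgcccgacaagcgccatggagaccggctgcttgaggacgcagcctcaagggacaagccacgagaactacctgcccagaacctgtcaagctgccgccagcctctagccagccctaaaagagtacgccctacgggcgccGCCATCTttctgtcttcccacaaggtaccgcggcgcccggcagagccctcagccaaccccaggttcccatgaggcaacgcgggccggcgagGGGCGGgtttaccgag

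RefSeq promoters were matched for 67 of the 76 members and for 14369 genes of the array, and windows of 250 bases before to 50 after the start were searched. The ETS core stood in 35.8% of member promoters, against 13.8% of all promoters. The YY1 core stood in 17.9% against 6.56%, and the NRF1 core in 11.9% against 5.33%. For the GC box the shares were 50.7% and 54.1%, for the E-box 7.46% and 9.04%, for the CRE core 5.97% and 4.63%, and for the TATA box 5.97% and 9.85%. Members called lower in both iTreg groups held the ETS core in 7 of 16 promoters and the other members in 17 of 51. For the GC box the counts were 5 of 16 and 29 of 51, for the YY1 core 2 of 16 and 10 of 51, and for the NRF1 core 2 of 16 and 6 of 51. For the E-box they were 1 of 16 and 4 of 51, for the CRE core 2 of 16 and 2 of 51, and for the TATA box 1 of 16 and 3 of 51. These matches are letters in a window and not binding sites. Of the 67 members, 25 (37.3%) had a gene on the opposite strand that starts within 1000 bases, against 11.2% of all genes with a promoter.

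The comparison of pltTGFβ_iTreg with Tconv asked how cells cultured with platelet lysate differ from conventional T cells. Most mitochondrial ribosomal protein genes read lower in the iTreg. Of 76 members, 23 (30.3%) were called lower and 2 (2.63%) higher, where a call in limma needs a log2 change beyond 0.5 in either direction with an adjusted p under 0.1. Over all 18193 genes 14.7% were called lower and 13.9% higher. Members are bright genes, and among the 4455 genes at least as bright as the dimmest member, a set chosen after seeing the data, 18.1% were called lower and 26.7% higher. The share of members called lower thus stood above both backgrounds and the share called higher below both. The median log2 change of members was -0.34, against -0.16 for all genes and 0.02 for the bright genes. All pltTGFβ_iTreg arrays lay below all Tconv arrays for 57 members and above them for 11, where the shares over all genes were 38.4% below and 20.7% above. With no fold cutoff 54 members passed as lower and 12 as higher, against 40.3% and 20.2% of all genes, so many members moved by less than the cutoff.

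The comparison of purTGFβ_iTreg with Tconv put the same question to cells given purified TGFβ1. Here 29 members (38.2%) were called lower and 1 (1.32%) higher, against 14.9% lower and 14.5% higher over all genes. Of the bright genes 19.0% were called lower and 26.3% higher. The median log2 change of members was -0.44, against -0.17 for all genes and 0.002 for the bright genes. All purTGFβ_iTreg arrays lay below all Tconv arrays for 59 members and above them for 8, against 41.6% and 21.1% of all genes. With no fold cutoff 58 members passed as lower and 5 as higher, against 42.6% and 20.8% of all genes. The median over the 76 members was 9.78 to 9.86 on pltTGFβ_iTreg arrays, 9.71 to 9.76 on purTGFβ_iTreg arrays and 10.15 to 10.23 on Tconv arrays. The groups did not overlap in that median, though the iTreg groups came close to each other (9.78 against 9.76). The median over all genes was also lower on iTreg arrays, at 5.25 to 5.30 against 5.42 to 5.43 on Tconv arrays. For the bright genes it was higher on iTreg arrays, at 9.24 to 9.30 against 9.16 to 9.22. The plot of all members by array shows values below Tconv for most genes.

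**Figure D1:**
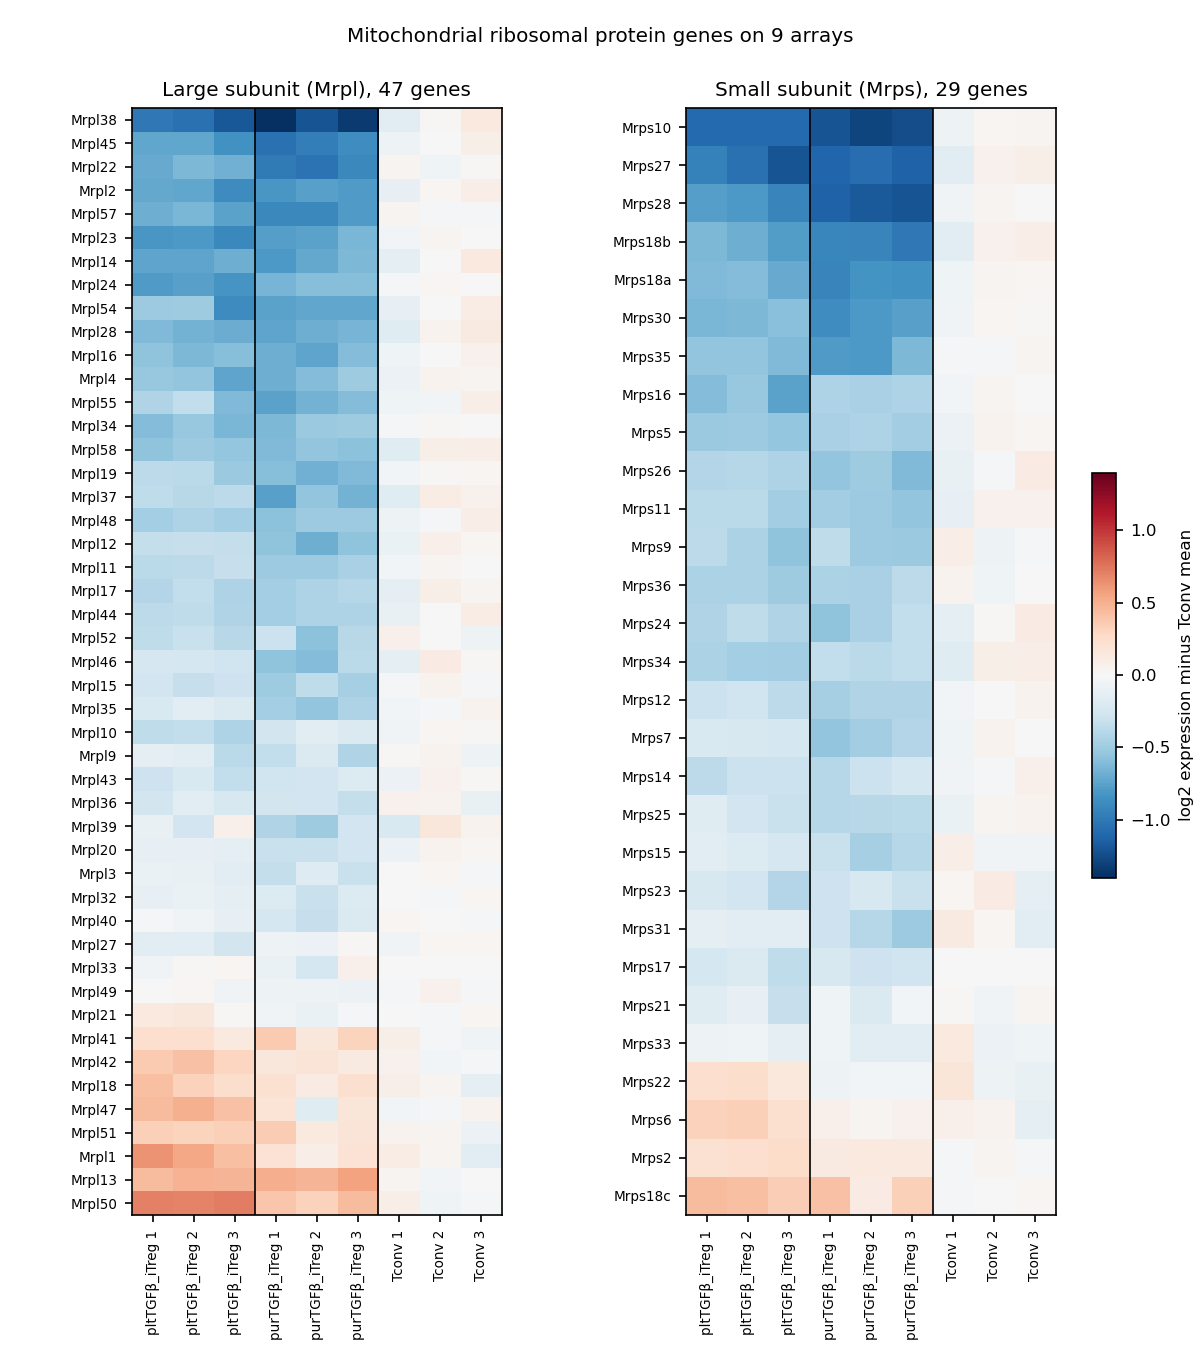
Each row is a member and each column an array, coloured by log2 expression minus the Tconv mean of that gene, with the large subunit on the left and the small subunit on the right. Genes are ordered by their mean change in the iTreg groups: most rows are blue in both, from Mrpl38 and Mrps10 at the top to Mrpl50 and Mrps18c at the bottom, which are red.

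Both comparisons use the same Tconv arrays, so their shared calls are not independent. The 21 members called lower in both are 91.3% of the 23 called in pltTGFβ_iTreg and 72.4% of the 29 called in purTGFβ_iTreg. For all genes, the 2032 called lower in both are 76.0% and 75.1%. Of the 21, 14 belong to the large subunit and 7 to the small subunit. Mrps16, a homologue of bacterial S16, and Mrps5, chosen after its values were seen, passed in pltTGFβ_iTreg but not in purTGFβ_iTreg, with log2 changes of -0.63 and -0.52 there and -0.44 and -0.46 in purTGFβ_iTreg.

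The small subunit held some of the largest falls. Mrps10, the homologue of bacterial S10 in the head of the subunit, read 9.96, 9.97 and 9.96 in pltTGFβ_iTreg, 9.84, 9.77 and 9.81 in purTGFβ_iTreg, and 10.98, 11.08 and 11.09 in Tconv. Every iTreg array lay below all Tconv arrays, with purTGFβ_iTreg lowest. It fell by 1.09 ± 0.072 (SE, adjusted p = 2.91e-07) in pltTGFβ_iTreg and by 1.24 ± 0.072 (SE, adjusted p = 8.71e-08) in purTGFβ_iTreg on the log2 scale, where the error is a standard error from limma and p-values are adjusted over all probe sets. Mrps27, a mitochondria-specific RNA-binding protein of the pentatricopeptide repeat family, read 8.08, 7.99 and 7.83 in pltTGFβ_iTreg, 7.92, 7.96 and 7.90 in purTGFβ_iTreg, and 8.89, 9.09 and 9.11 in Tconv. Its iTreg arrays overlapped with each other and lay below all Tconv arrays. Mrps27 fell by 1.06 ± 0.093 (SE, adjusted p = 2.51e-06) in pltTGFβ_iTreg and by 1.10 ± 0.093 (SE, adjusted p = 1.68e-06) in purTGFβ_iTreg. Their promoters, shown above, hold a CRE core in Mrps10 and an ETS core in Mrps27, and the longer window searched also holds a YY1 core in Mrps27.

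Mrps28, a small-subunit protein related to bacterial S1, read 9.71, 9.68 and 9.56 in pltTGFβ_iTreg, 9.36, 9.31 and 9.28 in purTGFβ_iTreg, and 10.44, 10.53 and 10.49 in Tconv. The purTGFβ_iTreg arrays were the lowest, the pltTGFβ_iTreg arrays lay between, and no groups overlapped. Mrps28 fell by 0.84 ± 0.077 (SE, adjusted p = 3.74e-06) in pltTGFβ_iTreg and by 1.17 ± 0.077 (SE, adjusted p = 2.25e-07) in purTGFβ_iTreg. Mrps35, a mitochondria-specific protein chosen after its values were seen, fell in both too, by 0.58 in pltTGFβ_iTreg and 0.74 in purTGFβ_iTreg.

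Other small-subunit members with known roles read closer to Tconv. Mrps12, the homologue of the bacterial decoding-centre protein S12, read 10.10, 10.12 and 10.03 in pltTGFβ_iTreg, 9.93, 9.98 and 9.98 in purTGFβ_iTreg, and 10.36, 10.39 and 10.44 in Tconv. All its iTreg arrays lay below Tconv, but its changes of -0.31 and -0.43 did not reach the fold cutoff. The same held for Mrps34, Mrps14 and Mrps7, at -0.47, -0.32 and -0.23 in pltTGFβ_iTreg and -0.36, -0.32 and -0.48 in purTGFβ_iTreg. The mean of its probe sets turned Mrps14 to 0.15 in pltTGFβ_iTreg and 0.07 in purTGFβ_iTreg. Without Tconv replicate 1, Mrps34 passed in pltTGFβ_iTreg (-0.55) and Mrps7 in purTGFβ_iTreg (-0.51), and Mrps7 also passed without purTGFβ_iTreg replicate 3 (-0.52). Mrps34 and Mrps7, with Mrps16, Mrps22 and Mrps2, are genes in which human mutations cause defects of the respiratory chain. Mrps22 had log2 changes of 0.21 in pltTGFβ_iTreg and -0.05 in purTGFβ_iTreg, and its iTreg arrays overlapped with Tconv in both. Mrps2, the homologue of bacterial S2, and Mrps6, of bacterial S6, were on the higher side, at 0.24 and 0.29 in pltTGFβ_iTreg and 0.13 and 0.06 in purTGFβ_iTreg, and were not called. Mrps36 carries the name of the family but is known as a subunit of the 2-oxoglutarate dehydrogenase complex. It had log2 changes of -0.46 and -0.42 and was not called.

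The 3 Mrps18 paralogs, descendants of bacterial S18, did not go the same way. Mrps18a, whose protein is built into the large subunit in spite of its name, read 9.68, 9.68 and 9.59 in pltTGFβ_iTreg, 9.36, 9.45 and 9.44 in purTGFβ_iTreg, and 10.23, 10.33 and 10.32 in Tconv. No groups overlapped, and purTGFβ_iTreg was the lowest. It fell by 0.64 ± 0.075 (SE, adjusted p = 2.69e-05) in pltTGFβ_iTreg and by 0.87 ± 0.075 (SE, adjusted p = 1.97e-06) in purTGFβ_iTreg. Mrps18b, a paralog in the small subunit, read 9.93, 9.88 and 9.78 in pltTGFβ_iTreg, 9.65, 9.64 and 9.57 in purTGFβ_iTreg, and 10.41, 10.62 and 10.66 in Tconv, with the groups again apart in the same order. It fell by 0.70 ± 0.088 (SE, adjusted p = 5.07e-05) in pltTGFβ_iTreg and by 0.94 ± 0.088 (SE, adjusted p = 3.85e-06) in purTGFβ_iTreg. Mrps18c, the paralog that takes the place of bacterial S18 in the small subunit, read 10.61, 10.59 and 10.51 in pltTGFβ_iTreg, 10.57, 10.29 and 10.50 in purTGFβ_iTreg, and 10.14, 10.17 and 10.19 in Tconv. All its iTreg arrays lay above all Tconv arrays, but the changes of 0.41 ± 0.088 and 0.28 ± 0.088 (SE) stayed under the fold cutoff, with adjusted p of 0.00269 in pltTGFβ_iTreg and 0.0197 in purTGFβ_iTreg. The printed Mrps18a promoter holds an ETS core, that of Mrps18b GC boxes and an NRF1 core, and that of Mrps18c an E-box next to an ETS core. Mrps30, which also sits in the large subunit, fell by 0.62 ± 0.074 (SE, adjusted p = 3.3e-05) in pltTGFβ_iTreg and by 0.81 ± 0.074 (SE, adjusted p = 3.05e-06) in purTGFβ_iTreg.

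**Figure D2:**
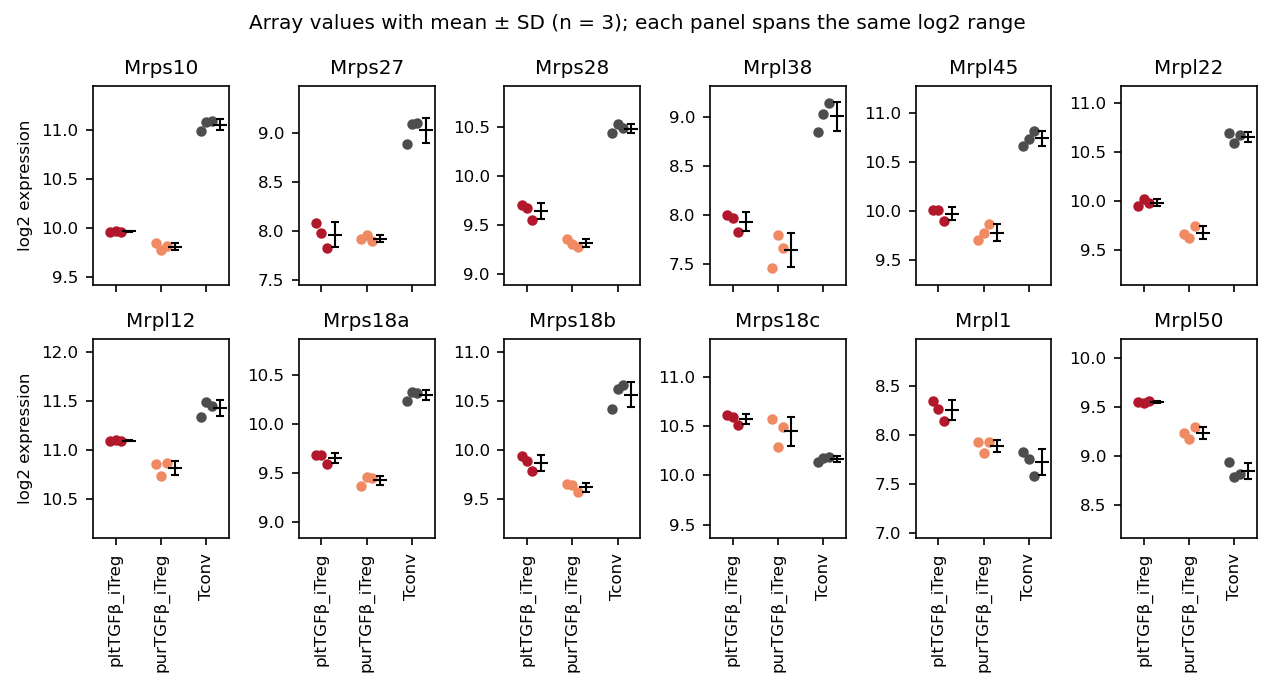
Points are log2 expression on each array for 12 members, by group, with mean and SD (n = 3) in black, and every panel spans the same log2 range. Mrps10, Mrps27, Mrps28 and Mrpl38 read lower in both iTreg groups than in Tconv, Mrps18a and Mrps18b do so by less, and Mrps18c and Mrpl50 lie on the other side. Mrpl1 lies above Tconv in pltTGFβ_iTreg, while its purTGFβ_iTreg arrays overlap with Tconv.

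In the large subunit, 4 of the members that fell in both iTreg groups have places at the tunnel through which the new chain leaves. They were grouped here by role after their values were seen, and not all proteins at the tunnel are covered. Mrpl45, a mitochondria-specific protein that ties the ribosome to the inner membrane, read 10.01, 10.01 and 9.90 in pltTGFβ_iTreg, 9.71, 9.78 and 9.87 in purTGFβ_iTreg, and 10.67, 10.74 and 10.82 in Tconv. Both iTreg groups lay below Tconv and, by a smaller distance, purTGFβ_iTreg lay below pltTGFβ_iTreg. Mrpl45 fell by 0.77 ± 0.082 (SE, adjusted p = 1.33e-05) in pltTGFβ_iTreg and by 0.96 ± 0.082 (SE, adjusted p = 1.93e-06) in purTGFβ_iTreg. Mrpl22, the homologue of bacterial L22 in the tunnel wall, read 9.95, 10.02 and 9.98 in pltTGFβ_iTreg, 9.66, 9.62 and 9.75 in purTGFβ_iTreg, and 10.70, 10.59 and 10.67 in Tconv. No groups overlapped. It fell by 0.67 ± 0.075 (SE, adjusted p = 2.08e-05) in pltTGFβ_iTreg and by 0.98 ± 0.075 (SE, adjusted p = 8.42e-07) in purTGFβ_iTreg. Mrpl23 and Mrpl24, homologues of bacterial proteins at the tunnel exit, showed the reverse order of the iTreg groups. Mrpl23 fell by 0.84 ± 0.076 (SE, adjusted p = 3.36e-06) in pltTGFβ_iTreg and by 0.72 ± 0.076 (SE, adjusted p = 1.15e-05) in purTGFβ_iTreg. Mrpl24 fell by 0.79 ± 0.071 (SE, adjusted p = 3.21e-06) in pltTGFβ_iTreg and by 0.61 ± 0.071 (SE, adjusted p = 2.43e-05) in purTGFβ_iTreg. For both genes all pltTGFβ_iTreg arrays lay below all purTGFβ_iTreg arrays, though that difference was not called (-0.12 and -0.18). Mrpl44, another protein near the exit and related to RNase III, had log2 changes of -0.38 and -0.45 and was not called.

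Mrpl38, a mitochondria-specific protein with a domain like that of phosphatidylethanolamine-binding proteins, had the largest fall among large-subunit members in both comparisons. It read 8.005, 7.97 and 7.82 in pltTGFβ_iTreg, 7.46, 7.80 and 7.67 in purTGFβ_iTreg, and 8.85, 9.03 and 9.15 in Tconv. Its purTGFβ_iTreg arrays spread more than the others but did not overlap with either group. Mrpl38 fell by 1.08 ± 0.11 (SE, adjusted p = 8.56e-06) in pltTGFβ_iTreg and by 1.37 ± 0.11 (SE, adjusted p = 1.08e-06) in purTGFβ_iTreg. Its probe set carries a suffix for probes that can match more than 1 transcript. The 2 dimmer Mrpl38 probe sets had log2 changes of -0.66 and -0.39 in pltTGFβ_iTreg, the first of them called, and by -0.65 and -0.54 in purTGFβ_iTreg, both called.

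Mrpl2, the homologue of bacterial L2 next to the catalytic centre, read 9.48, 9.47 and 9.32 in pltTGFβ_iTreg, 9.38, 9.43 and 9.40 in purTGFβ_iTreg, and 10.08, 10.22 and 10.29 in Tconv. Its iTreg groups overlapped with each other and lay below Tconv, with falls of 0.78 ± 0.084 (SE, adjusted p = 1.5e-05) in pltTGFβ_iTreg and 0.79 ± 0.084 (SE, adjusted p = 1.18e-05) in purTGFβ_iTreg. Mrpl3, an early-assembling homologue of bacterial L3, had log2 changes of only -0.12 and -0.28 and was not called. Mrpl58, a peptidyl-tRNA hydrolase that rescues stalled ribosomes and is also a fixed part of the large subunit, fell by 0.54 ± 0.086 (SE, adjusted p = 0.000338) in pltTGFβ_iTreg and by 0.58 ± 0.086 (SE, adjusted p = 0.000181) in purTGFβ_iTreg. These Mrpl58 falls lie close to the cutoff, and its pltTGFβ_iTreg call was lost without Tconv replicate 2 (-0.50) or replicate 3 (-0.49) and with array medians centred (-0.48). With the mean of its probe sets both calls were lost, at -0.35 in pltTGFβ_iTreg and -0.42 in purTGFβ_iTreg.

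The stalk proteins, which bring translation factors to the ribosome, were on the lower side. Mrpl12, the stalk protein that is also reported to bind the mitochondrial RNA polymerase, read 11.10, 11.11 and 11.10 in pltTGFβ_iTreg, 10.87, 10.74 and 10.87 in purTGFβ_iTreg, and 11.34, 11.50 and 11.46 in Tconv. No groups overlapped, with purTGFβ_iTreg lowest and Tconv highest. Mrpl12 had a log2 change of -0.33 in pltTGFβ_iTreg, which was not called, and fell by 0.60 ± 0.078 (SE, adjusted p = 5.99e-05) in purTGFβ_iTreg. Mrpl10, which anchors the stalk, had log2 changes of -0.38 and -0.20, and Mrpl11, at the stalk base, of -0.35 and -0.49. Neither was called, though Mrpl11 passed in purTGFβ_iTreg without purTGFβ_iTreg replicate 3 or Tconv replicate 1 (both -0.51). All iTreg arrays of both genes lay below all Tconv arrays.

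Only 3 members were called higher, all of the large subunit. Mrpl50, a mitochondria-specific protein, read 9.55, 9.54 and 9.56 in pltTGFβ_iTreg, 9.24, 9.17 and 9.29 in purTGFβ_iTreg, and 8.94, 8.79 and 8.82 in Tconv. The groups lay apart, with pltTGFβ_iTreg highest and Tconv lowest. Mrpl50 rose by 0.71 ± 0.077 (SE, adjusted p = 1.58e-05) in pltTGFβ_iTreg, and its change of 0.39 in purTGFβ_iTreg was under the fold cutoff. Its promoter, printed above, holds none of the letters searched. Mrpl1, the homologue of the bacterial L1 stalk protein at the exit site for spent tRNA, read 8.35, 8.26 and 8.15 in pltTGFβ_iTreg, 7.92, 7.81 and 7.92 in purTGFβ_iTreg, and 7.83, 7.76 and 7.58 in Tconv. All pltTGFβ_iTreg arrays lay above the rest, and purTGFβ_iTreg overlapped with Tconv. Mrpl1 rose by 0.53 ± 0.092 (SE, adjusted p = 0.000586) in pltTGFβ_iTreg, a call lost without pltTGFβ_iTreg replicate 1 (0.48) or Tconv replicate 3 (0.46) and under quantile normalization (0.34). Mrpl13, the homologue of bacterial L13, read 10.92, 10.96 and 10.95 in pltTGFβ_iTreg, 10.99, 10.95 and 11.03 in purTGFβ_iTreg, and 10.51, 10.44 and 10.47 in Tconv. Its iTreg groups overlapped with each other and lay above Tconv. Mrpl13 rose by 0.52 ± 0.071 (SE, adjusted p = 0.000102) in purTGFβ_iTreg and had a log2 change of 0.47 in pltTGFβ_iTreg. The purTGFβ_iTreg call was lost without purTGFβ_iTreg replicate 3 (0.496) or Tconv replicate 2 (0.499) and under quantile normalization (0.496). Other Mrpl13 probe sets, with means of 9.55 and 7.88, were not called, at 0.02 and 0.06 in pltTGFβ_iTreg and 0.22 and 0.23 in purTGFβ_iTreg. A dim one (mean 3.34) was called higher in both, at 0.65 and 0.74. Mrpl41, a mitochondria-specific protein, read above Tconv on all iTreg arrays without being called (0.21 and 0.28), and the mean of its probe sets turned the pltTGFβ_iTreg value to -0.01.

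Set by subunit, members called lower came from both subunits in both comparisons, and the 3 called higher from the large subunit. In pltTGFβ_iTreg 14 of 47 large-subunit members (29.8%) and 9 of 29 small-subunit members (31.0%) were called lower, with median log2 changes of -0.33 and -0.40. In purTGFβ_iTreg the counts were 20 of 47 (42.6%) and 9 of 29 (31.0%), with medians of -0.44 and -0.44. The 0 small-subunit members called higher by limma compare with 4 at an unadjusted p under 0.05 in pltTGFβ_iTreg and 1 in purTGFβ_iTreg. The large minus small difference of these medians was 0.07 in pltTGFβ_iTreg, and counting Mrps18a and Mrps30 with the large subunit and leaving out Mrps36 turned it to -0.03. By that placing, 16 of 49 large-subunit members (32.7%) and 7 of 26 small-subunit members (26.9%) were called lower in pltTGFβ_iTreg, and 22 of 49 (44.9%) and 7 of 26 (26.9%) in purTGFβ_iTreg. Members were also split, by the number in their symbol, into those with a bacterial homologue and mitochondria-specific ones. The split is approximate and may misplace members such as Mrpl47, which it counts as mitochondria-specific. Those taken to have a bacterial homologue were called lower in 15 of 45 cases in pltTGFβ_iTreg and 16 of 45 in purTGFβ_iTreg. For those taken as mitochondria-specific the counts were 8 of 30 and 13 of 30. These classes were described without a test between them.

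**Figure D3:**
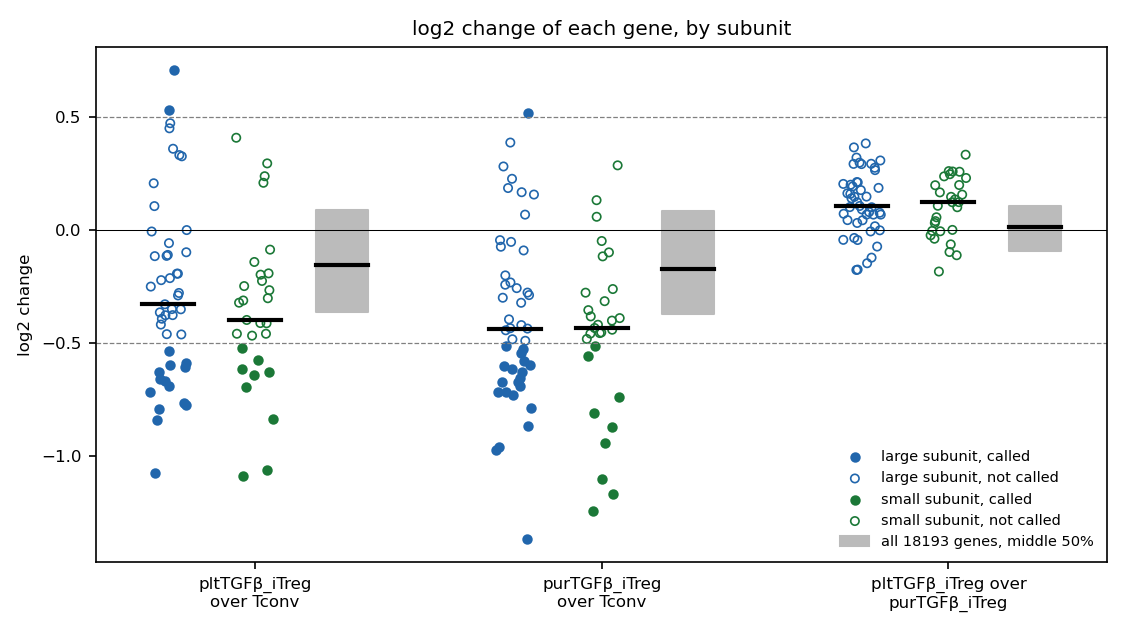
Points are log2 changes of the 76 members in the 3 comparisons, large subunit in blue and small subunit in green, filled where called and open where not. Black bars are medians, grey boxes hold the middle 50% of all 18193 genes, and dashed lines mark the fold cutoff of 0.5. Both subunits lie mostly below 0 against Tconv and mostly a little above 0 between the iTreg groups.

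Set against each other, pltTGFβ_iTreg and purTGFβ_iTreg compare culture with platelet lysate and culture with purified TGFβ1. The lysate brings other platelet contents and a TGFβ1 dose that is not given, so the source of TGFβ cannot be told apart from these. The sex markers were not called here (log2 differences of 0.32 for Xist and -0.06 for Eif2s3y). No member was called, where 1.54% of all genes were called higher in pltTGFβ_iTreg and 2.57% lower. Among the bright genes the shares were 2.31% and 2.47%. At an unadjusted p under 0.05 in limma 26 members were higher and 3 lower. Of all 18193 genes 1645 were higher and 1810 lower in that way, and of the 4455 bright genes 759 and 654. The unmoderated contrast also called 0 members at the cutoffs used. The members' changes were small and mostly one way. Of 76 members, 57 had a log2 change above 0, with a median of 0.11 against 0.01 for all genes. All pltTGFβ_iTreg arrays lay above all purTGFβ_iTreg arrays for 41 members and below them for 7, where the shares were 13.6% and 14.6% of all genes and 26.8% and 24.2% of the bright genes. With no fold cutoff 8 members passed as higher and 0 as lower, against 4.23% and 5.49% of all genes and 8.78% and 7.95% of the bright genes. The 8, about 1 in 10 members, are near the share of bright genes that passed as higher, while the 0 lower is below it.

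The 8 members had changes of 0.38 for Mrpl47, 0.36 for Mrpl1, 0.33 for Mrps28, 0.32 for Mrpl50, 0.31 for Mrpl22, 0.29 for Mrpl35, 0.27 for Mrpl12 and 0.26 for Mrps7. They have different positions against Tconv. Mrps28 and Mrpl22 were called lower in both iTreg groups, Mrpl12 in purTGFβ_iTreg, and Mrpl50 and Mrpl1 were called higher in pltTGFβ_iTreg. Mrpl47, chosen here after its values were seen, read 9.81, 9.87 and 9.78 in pltTGFβ_iTreg, 9.56, 9.20 and 9.54 in purTGFβ_iTreg, and 9.34, 9.35 and 9.42 in Tconv. Its pltTGFβ_iTreg arrays lay above both other groups, which overlapped. The difference between the iTreg groups was 0.38 ± 0.10 (SE, adjusted p = 0.0503), under the fold cutoff. Large-subunit and small-subunit members had median differences of 0.11 and 0.12.

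Some members start next to each other or next to other genes. Mrpl46 and Mrps11, proteins of opposite subunits, start 42 bases apart on opposite strands of chromosome 7, and the Mrps11 promoter printed above covers the Mrpl46 start. Mrps11 read 8.71, 8.70 and 8.60 in pltTGFβ_iTreg, 8.60, 8.58 and 8.53 in purTGFβ_iTreg, and 8.96, 9.14 and 9.14 in Tconv. Mrpl46 read 9.68, 9.66 and 9.64 in pltTGFβ_iTreg, 9.35, 9.31 and 9.53 in purTGFβ_iTreg, and 9.78, 10.03 and 9.93 in Tconv. In both genes all iTreg arrays lay below all Tconv arrays. Mrps11 fell by 0.51 ± 0.081 (SE, adjusted p = 0.000288) and Mrpl46 by 0.52 ± 0.092 (SE, adjusted p = 0.000699) in purTGFβ_iTreg, and in pltTGFβ_iTreg the changes of -0.41 and -0.25 were not called. Mrps12 starts 147 bases from Sars2, the mitochondrial seryl-tRNA synthetase gene, which fell by 0.69 in pltTGFβ_iTreg and 0.85 in purTGFβ_iTreg while Mrps12 was not called. Over the 25 divergent neighbours, 5 were called lower in each comparison with Tconv, with median changes of -0.21 and -0.23. Over all genes 14.7% and 14.9% were called lower, with medians of -0.16 and -0.17, so the neighbours' lower calls and medians stood near the background. At the cutoffs used in limma, 0 neighbours were called higher in either comparison, against 13.9% and 14.5% of all genes. Mrps11 and Mrpl46 are members themselves and count among the neighbours called lower in purTGFβ_iTreg. Both purTGFβ_iTreg falls of the pair lie close to the cutoff. The pair and the neighbours were picked after their values were seen.

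Proteins of the mitochondrial ribosome with other symbols went both ways. Ptcd3, a pentatricopeptide repeat protein of the small subunit, rose by 0.93 in pltTGFβ_iTreg and 0.74 in purTGFβ_iTreg. Gadd45gip1, a large-subunit protein, fell by 0.87 in both. Dap3, a GTP-binding protein of the small subunit, and Chchd1, another of its proteins, were not called (-0.37 and -0.39 in pltTGFβ_iTreg). Of 27 factors that assemble mitochondrial ribosomes or modify their RNA, 12 fell (44.4%) and 3 rose (11.1%) in pltTGFβ_iTreg, and 11 fell (40.7%) and 2 rose (7.41%) in purTGFβ_iTreg, where 14.7% and 14.9% of all genes fell and 13.9% and 14.5% rose. The GTPase Mtg1 fell by 1.24 and 1.37 in pltTGFβ_iTreg and purTGFβ_iTreg. Mpv17l2, an inner-membrane protein needed for ribosome assembly, fell by 1.18 and 1.08. Another GTPase of the large subunit, Gtpbp10, rose by 1.06 and 0.94, and Mterf3, a regulator of mitochondrial transcription and ribosome assembly, by 0.99 and 0.84. Fastkd2, an RNA-binding assembly factor of the large subunit, read 7.75 in pltTGFβ_iTreg, 7.01 in purTGFβ_iTreg and 7.05 in Tconv on average, and was the only one of the 27 called between the iTreg groups (0.74, adjusted p = 0.000297).

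Among 14 measured translation factors, 4 fell in each iTreg group, and 2 rose in pltTGFβ_iTreg and 3 in purTGFβ_iTreg. The shares higher were 14.3% and 21.4% and the shares lower 28.6% in each, to be read against the all-gene shares given above. Guf1, a factor related to bacterial LepA, rose by 1.19 and 1.32, and Mtrf1l, a release factor, by 0.83 and 0.85. The elongation factors Tufm and Tsfm fell by 0.79 and 0.84 in pltTGFβ_iTreg and by 0.88 and 0.96 in purTGFβ_iTreg. Oxa1l, which inserts new chains into the inner membrane, fell by 0.84 and 0.70. Of 19 mitochondrial tRNA synthetases and related enzymes, 9 fell and 1 rose in pltTGFβ_iTreg, and 8 fell and 0 rose in purTGFβ_iTreg (1 was higher at an unadjusted p under 0.05 in limma). The shares lower, 47.4% and 42.1%, lay above the 14.7% and 14.9% of all genes. The share higher in pltTGFβ_iTreg, 5.26%, lay below the 13.9% of all genes, and the 0 in purTGFβ_iTreg compares with 14.5%. Ears2, the glutamyl enzyme, fell by 1.22 and 1.34, and Gatb, of the glutamine-forming complex, by 1.13 and 1.41. Of 19 genes that copy or transcribe mitochondrial DNA or process its RNA, 2 fell and 4 rose in pltTGFβ_iTreg and 4 fell and 4 rose in purTGFβ_iTreg. Their shares lower were 10.5% and 21.1%, and their share higher was 21.1% in each, to be read against the same all-gene shares. Hsd17b10, a subunit of mitochondrial RNase P, fell by 1.48 and 1.66, while Trmt10c, another subunit of that enzyme, rose by 1.41 and 1.06. Tfb2m, a transcription factor of mitochondria, rose by 1.31 and 1.11, and Polrmt, their RNA polymerase, fell by 0.75 and 0.90. The cytosolic ribosomal proteins, the counterparts outside mitochondria, had 3 of 40 lower and 2 higher in pltTGFβ_iTreg and 1 lower and 2 higher in purTGFβ_iTreg. Their shares lower, 7.5% and 2.5%, and higher, 5.0% in each, lay below the all-gene shares.

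**Figure D4:**
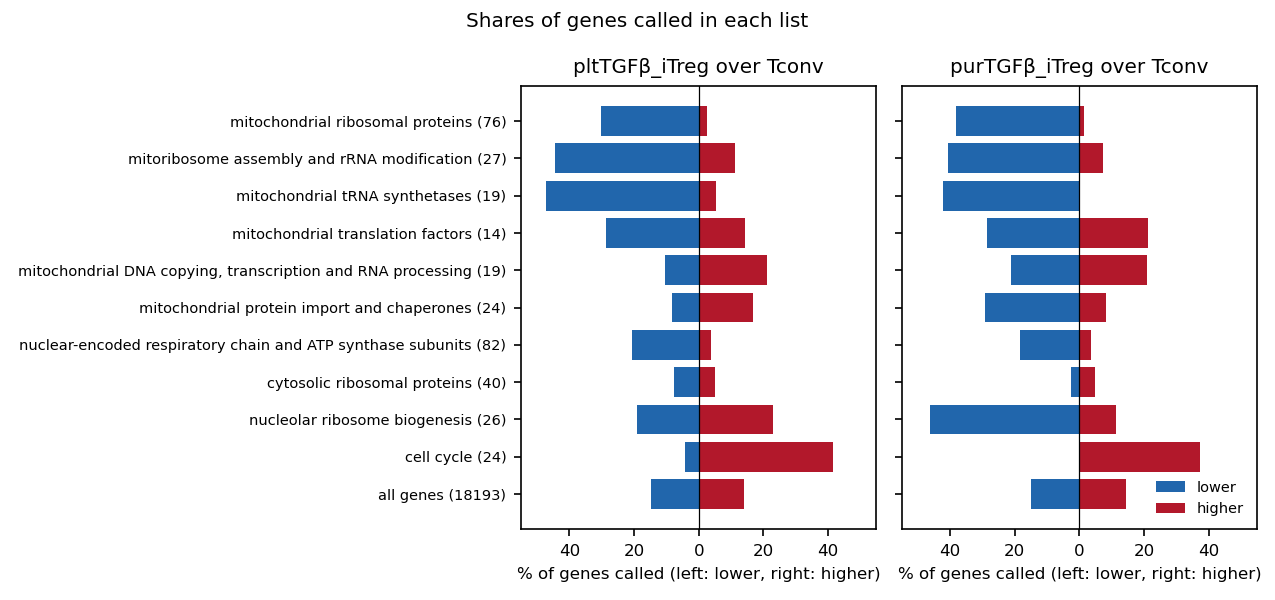
Bars give the share of genes in each list called lower (blue, to the left) or higher (red, to the right) in the comparisons with Tconv, with the number of genes measured in brackets. Mitochondrial ribosomal proteins, their assembly factors and the mitochondrial tRNA synthetases have longer bars to the left than all genes, and cytosolic ribosomal proteins have short bars on both sides.

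Of 12 regulators known to act on genes for mitochondria, 4 fell and 3 rose in each iTreg group, against 14.7% and 13.9% of all genes in pltTGFβ_iTreg and 14.9% and 14.5% in purTGFβ_iTreg. Gabpa, the DNA-binding subunit of GABP, rose by 1.46 in pltTGFβ_iTreg and 1.51 in purTGFβ_iTreg, whereas its partner Gabpb1 fell by 0.85 and 1.17. Max, the partner of Myc, rose by 0.94 and 1.44, and Sp1, which binds GC boxes, by 0.62 and 0.68. The coactivators Pprc1 and Ppargc1b fell by 0.92 and 0.66 in pltTGFβ_iTreg and by 1.05 and 0.69 in purTGFβ_iTreg. Esrra, a nuclear receptor that works with such coactivators, fell by 0.73 and 0.64. Nrf1 (-0.43 and -0.42), Yy1 (0.38 and 0.43), Tfam, which packs mitochondrial DNA (0.43 and 0.44), Myc (0.37 and 0.27) and the coactivator Ppargc1a (-0.35 and -0.36) were not called. What these levels do to the ribosomal protein genes was not tested.

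Several members are read by more than 1 probe set, and these did not always move together. Of the 76 members 42 have several, with 80 probe sets beside those used. Of the 80, 11 were called lower in each comparison with Tconv, and 9 were called higher in pltTGFβ_iTreg and 7 in purTGFβ_iTreg. Over all 45037 probe sets tested, 10.3% were called lower and 15.0% higher in pltTGFβ_iTreg, and 10.4% and 15.5% in purTGFβ_iTreg. The probe sets not used thus lay near that background, without the excess of lower calls seen in those used. They are mostly dimmer than those used, since the rule keeps the brightest one not ending in _x_at. Brightness and the choice of probe set therefore cannot be told apart here. Mrpl15, the homologue of bacterial L15, has 8 and was the only member with probe sets called in opposite directions. The 3 other bright ones (means of 10.03 to 10.91) were called lower, at -0.60 to -0.85 in pltTGFβ_iTreg and -0.59 to -0.82 in purTGFβ_iTreg. A dimmer one (mean 6.69) was called higher at 1.19 and 1.20, and another (mean 6.01) at 0.55 and 0.57. The probe set that stands for Mrpl15 had log2 changes of -0.29 and -0.44 and was not called. Of the bright ones, 2 carry the suffix of probes that may cross-hybridise, as does the one at 1.19. Mrpl50 and Mrpl1, given above as higher, have a dimmer probe set called higher in both iTreg groups, at 1.37 and 1.15 for Mrpl50 and 1.28 and 1.04 for Mrpl1. Whether such probe sets read other transcripts of the gene was not tested.

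**Figure D5:**
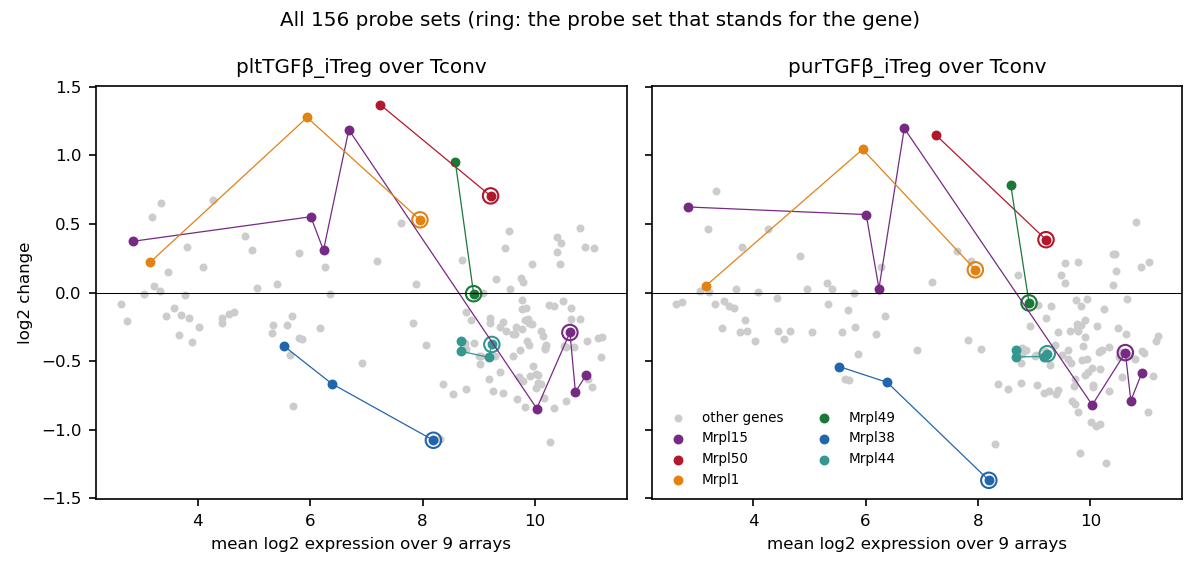
Each point is 1 of the 156 probe sets of members, placed by its mean log2 expression over 9 arrays and its log2 change against Tconv in pltTGFβ_iTreg (left) and purTGFβ_iTreg (right). Coloured lines join the probe sets of Mrpl15, Mrpl50, Mrpl1, Mrpl49, Mrpl38 and Mrpl44, and rings mark the one used for the gene. Mrpl15 runs from negative changes in its bright probe sets to positive ones in dim probe sets.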

How the data were processed

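The 9 arrays were Affymetrix whole-genome mouse arrays. The deposited values are log2 expression made by the authors with RMA in Expression Console, per the labels' protocols, and the submitters' processing notes name Partek Genomics Suite 6.6. Precision is limited by having 3 arrays a group.

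Of 45101 probe sets, 64 controls were left out. Group means were fitted to all 9 arrays with limma 3.58.1 in R 4.3.3 (lmFit, eBayes), with Benjamini-Hochberg adjustment over 45037 probe sets. A call needed a log2 change beyond 0.5 in either direction with an adjusted p under 0.1, set after the cutoffs the labels give, with their fold rounded to 0.5 on the log2 scale. The table of genes took 1 probe set per symbol, the one with the highest mean, and a probe set ending in _x_at only where a gene had no other. Summaries used Python 3.11.15, pandas 2.3.3 and numpy 2.4.6, and figures matplotlib 3.10.9. The fit was tested on simulated data, with changes of 0.6 set in 67 probe sets for each comparison. Of these, 70.1% were called for pltTGFβ_iTreg over Tconv, 83.6% for purTGFβ_iTreg over Tconv and 76.1% between the iTreg groups. The simulations shared group sizes and spread, so these shares differ by the random draw. Far fewer probe sets were changed in them than passed against Tconv, so the shares are not detection rates for these data. Promoters came from RefSeq, GRCm38.p6.

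Members and lists were chosen with earlier results of these data known. Named members are, per comparison, the 8 called with the largest rise and the 8 with the largest fall, the 3 with the highest and the 3 with the lowest mean, those whose probe sets are called in opposite directions, and a written list with known roles. Other lists give up to 4 genes by adjusted p. Other named genes were chosen after their values were seen. Alternatives covered the scaling, the summary of probe sets, the cutoffs, the model and each replicate. P-values set the difference between group means against the spread of these arrays within groups. Against Tconv they do not account for the difference in sex.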

Additional observations from a re-analysis of the deposited data

Results flagged for a closer look

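Between the iTreg groups, 8 members passed an adjusted p under 0.1 in limma with no fold cutoff, all higher in pltTGFβ_iTreg than in purTGFβ_iTreg. The log2 differences were 0.38 for Mrpl47, 0.36 for Mrpl1, 0.33 for Mrps28, 0.32 for Mrpl50, 0.31 for Mrpl22, 0.29 for Mrpl35, 0.27 for Mrpl12 and 0.26 for Mrps7. None reached the fold cutoff of 0.5. Of the genes at least as bright as the dimmest member 8.78% passed as higher in the same way, so a count of 8 of 76 is near that background.

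Probe sets beside the ones used for each gene also gave calls of higher expression than in Tconv, which the comparisons by gene do not use. For Mrpl15 a probe set changed by 1.19 in pltTGFβ_iTreg and 1.20 in purTGFβ_iTreg, another by 0.55 and 0.57, and a dim one by 0.62 in purTGFβ_iTreg. Mrpl49 had one at 0.95 in pltTGFβ_iTreg and 0.78 in purTGFβ_iTreg. In purTGFβ_iTreg Mrpl50 had one at 1.15 and Mrpl1 one at 1.04. In pltTGFβ_iTreg Mrpl47 had one at 0.68, Mrpl13 at 0.65, Mrps14 at 0.55 and Mrps2 at 0.51. The Mrpl13 one is dim, with a mean of 3.34. Beside these, 11 other probe sets were called lower in each comparison with Tconv. Over all probe sets tested 15.0% were called higher in pltTGFβ_iTreg and 15.5% in purTGFβ_iTreg.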

How the results depend on the processing

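No called value of a named member changed sign under the alternatives run. Of these members' values 1994 stayed on their side of the cutoffs, 49 gained a call and 36 lost it. These counts take in the comparison between the iTreg groups, where no member was called. They also take in settings that leave out an array of a group not compared or that change only the cutoffs. Many of the values thus had little room to change their call. Values not called did change sign in places: with the mean of all probe sets of a gene Mrps14 turned to 0.15 in pltTGFβ_iTreg and 0.07 in purTGFβ_iTreg, and Mrpl15 and Mrpl41 to 0.02 and -0.01 in pltTGFβ_iTreg. Under quantile normalization Mrpl1 and Mrps2 turned to -0.06 and -0.03 in purTGFβ_iTreg. Mrps22 and Mrps6 in purTGFβ_iTreg, and Mrpl2, Mrps10, Mrps14 and Mrps27 between the iTreg groups, also changed sign under at least 1 alternative. Under quantile normalization 28 members were called lower in pltTGFβ_iTreg and 36 in purTGFβ_iTreg, against 23 and 29 in the values as reported. That setting called 1 member higher in pltTGFβ_iTreg and 0 in purTGFβ_iTreg (limma, against 12 and 5 higher at an unadjusted p under 0.05 in the values as reported). Its median changes were -0.38 and -0.47, against -0.13 in each for all genes. With array medians centred 21 and 24 were called lower, and 4 were called higher in pltTGFβ_iTreg. The medians were then -0.28 and -0.38, against -0.10 and -0.11 for all genes. With the mean of all probe sets of a gene 18 and 23 were called lower, and the medians were -0.25 and -0.32. The large minus small difference in purTGFβ_iTreg was then 0.055. Without a fold cutoff the counts were 12 higher and 54 lower in pltTGFβ_iTreg, 5 and 58 in purTGFβ_iTreg, and 8 higher between the iTreg groups. At an adjusted p under 0.05 and a log2 change above 1, 0 were higher and 3 lower in pltTGFβ_iTreg, and 0 and 4 in purTGFβ_iTreg. Placing members by structure turned the large minus small difference in pltTGFβ_iTreg to -0.033. Leaving out 1 replicate gave 1 to 2 members higher and 21 to 24 lower in pltTGFβ_iTreg, 0 to 1 and 27 to 34 in purTGFβ_iTreg, and a large minus small difference in purTGFβ_iTreg of -0.058 to 0.0063. The cause of these moves was not tested. The fit with the replicate number as a block kept the counts at 2 and 23, 1 and 29, and 0 and 0, with medians of -0.34, -0.44 and 0.11. The numbers were not taken as pairs, since nothing in the labels says that they pair arrays. Same-numbered arrays correlated at 0.092 to 0.26 between the iTreg groups, each best with its own number, and at -0.12 to 0.085 with Tconv. The arrays of the iTreg groups may therefore be paired. The p-values between them, and the count of 8 with no fold cutoff, come from the unpaired fit. Changes near the cutoff of 0.5 are those that 3 arrays a group settle least.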

Other observations

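Of 24 cell cycle genes 10 rose (41.7%, against 13.9% of all genes) and 1 fell in pltTGFβ_iTreg, and 9 rose (37.5%, against 14.5%) and 0 fell in purTGFβ_iTreg (limma, 5 lower at an unadjusted p under 0.05). The kinesin Kif11 rose by 2.29 in pltTGFβ_iTreg and 2.15 in purTGFβ_iTreg, and the cyclin Ccne2 by 2.60 and 2.64. Of 82 nuclear-encoded subunits of the respiratory chain and ATP synthase, 17 fell and 3 rose in pltTGFβ_iTreg, and 15 fell and 3 rose in purTGFβ_iTreg. The shares lower, 20.7% and 18.3%, are near the 14.7% and 14.9% of all genes. They are also near the 18.1% and 19.0% of genes as bright as the members. The share higher, 3.66% in each, is below the 13.9% and 14.5% of all genes and the 26.7% and 26.3% of bright genes. The median log2 changes were -0.25 and -0.22, against -0.16 and -0.17 for all genes and 0.02 and 0.002 for the bright genes. Uqcrq of complex III fell by 0.94 and 0.84, and Cox7c of complex IV rose by 1.41 and 0.97.

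Nucleolar genes that build cytosolic ribosomes had 6 of 26 higher (23.1%, against 13.9% of all genes) and 5 lower (19.2%, against 14.7%) in pltTGFβ_iTreg. In purTGFβ_iTreg 3 were higher (11.5%, against 14.5%) and 12 lower (46.2%, against 14.9% of all genes). Between the iTreg groups all 26 had a log2 difference above 0, against 53.1% of all genes, with a median of 0.28. Gnl3 was called higher in pltTGFβ_iTreg (0.52). Of 24 genes for protein import and chaperones of mitochondria, 2 fell (8.33%) and 4 rose (16.7%) in pltTGFβ_iTreg, and 7 fell (29.2%) and 2 rose (8.33%) in purTGFβ_iTreg. These are to be read against the same all-gene shares. Timm17b, a channel subunit of the inner membrane, fell by 1.14 and 1.21, and Timm21 rose by 1.23 and 1.10.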
